A study of Mus musculus with 2 samples.

Results

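Microexons are very short exons, here internal exons of 3 to 27 bases. They were taken from the exon chains of the deposited transcript models of known genes, in the model classes Known (an annotated transcript), ISM (part of an annotated chain), NIC (annotated splice sites in another combination) and NNC (a splice site outside the annotation). Counted once by chromosome, strand, start and end, there were 909 microexons among 170043 internal exons of known genes, and they lay in 769 genes. The RNA came from the left cerebral cortex of female mice of the strain B6CASTF1/J, 14 days old, untreated and with no engineered allele named in the labels. Long reads were made in 2 libraries from 2 µg of total RNA each, with ERCC and SIRV spike-ins. The labels call them biological replicates 1 and 2 of 1 group, and the label of replicate 1 may mean that several females were pooled. There is no other condition, so the tests below compare these libraries with each other, and p-values weigh counting error alone.

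As background, microexons are spliced into many neuronal mRNAs as the neurons mature. Most add a few amino acids to the surface of a protein without shifting the reading frame, which requires a length divisible by 3. The proteins concerned often act in vesicle traffic, at the cytoskeleton or at synapses. Such short exons lean on splicing factors bound next to them: Srrm4 and Srrm3 promote their inclusion in neurons, Ptbp1 represses it, and Rbfox and Nova proteins act on many of them.

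The following microexons are shown because the inclusion results turn on them. Capitals mark the microexon, and lower case marks the last 12 bases of the exon before and the first 12 of the exon after it in the spliced GENCODE M21 transcript. Coordinates are mm10, and all are coding exons of that annotation apart from those of Ptk2, which it places in noncoding transcripts of that gene.
Snap91, 15 bases, chr9:86798830-86798844, minus strand: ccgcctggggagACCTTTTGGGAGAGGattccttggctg
Atp2a2, 18 bases, chr5:122500931-122500948, minus strand: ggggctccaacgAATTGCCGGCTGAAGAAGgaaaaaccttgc
Ptk2, 18 bases, chr15:73282218-73282235, minus strand: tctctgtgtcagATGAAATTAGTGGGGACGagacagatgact
Ptk2, 21 bases, chr15:73275621-73275641, minus strand: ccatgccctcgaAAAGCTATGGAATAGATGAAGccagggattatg
Dctn1, 21 bases, chr6:83187764-83187784, plus strand: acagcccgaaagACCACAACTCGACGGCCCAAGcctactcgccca
Mef2a, 24 bases, chr7:67244521-67244544, minus strand: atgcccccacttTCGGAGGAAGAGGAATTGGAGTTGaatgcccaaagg
Trim9, 24 bases, chr12:70252020-70252043, minus strand: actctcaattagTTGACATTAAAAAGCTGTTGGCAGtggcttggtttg
Cd47, 25 bases, chr16:49908054-49908078, plus strand: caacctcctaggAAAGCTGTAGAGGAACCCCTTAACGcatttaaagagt
Tpd52, 27 bases, chr3:8943551-8943577, minus strand: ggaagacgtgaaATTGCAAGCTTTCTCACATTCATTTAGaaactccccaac

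A further set is shown because spanning reads were plentiful and the annotated microexon was at or near 0 in them.
Apbb1, 6 bases, chr7:105565946-105565951, minus strand: ggacagtggaagAGAGAGggactttgccta
Nsmf, 6 bases, chr2:25057965-25057970, plus strand: aactatgcaagcCATCTCggtattcagggg
Pitpnb, 8 bases, chr5:111347120-111347127, plus strand: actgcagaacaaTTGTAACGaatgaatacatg
Rph3a, 12 bases, chr5:120980130-120980141, minus strand: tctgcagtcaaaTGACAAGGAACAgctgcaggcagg
Hnrnpk, 16 bases, chr13:58393853-58393868, minus strand: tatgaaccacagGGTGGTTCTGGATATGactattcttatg
Suds3, 20 bases, chr5:117106646-117106665, minus strand: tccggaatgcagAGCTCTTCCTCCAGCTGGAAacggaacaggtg
Camta2, 21 bases, chr11:70670891-70670911, minus strand: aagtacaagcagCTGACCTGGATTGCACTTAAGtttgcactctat
Gramd1a, 21 bases, chr7:31143547-31143567, minus strand: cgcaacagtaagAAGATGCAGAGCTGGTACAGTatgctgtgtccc

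Replicate 1 held 1087280 reads and replicate 2 held 762376, of which 1072344 and 753520 were mouse reads. The neuronal markers Snap25, Syp, Syt1, Tubb3, Slc17a7 and Gad1 were all read, from 182 to 1921 RPM (reads scaled to the same total of mouse reads in each library) in replicate 1 and from 143 to 1707 RPM in replicate 2. Summed levels of the neuronal, astrocyte, microglial and endothelial lists in replicate 2 were 0.891 to 1.09 times those in replicate 1. The oligodendrocyte list stood at 0.599 times, with all 5 of its genes read in both libraries and Mog lowest, at 5 reads in each. The liver and heart genes Alb, Apoa1, Myh6 and Tnnt2 together had 4 reads in replicate 1 and 0 in replicate 2. In RNA from whole tissue, fewer cells that include an exon and lower inclusion per cell cannot be told apart.

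The microexons with reads were long for their kind. The lengths of 21 to 27 bases held 753 of the 909 (82.8%), with 214 of 27 bases and 150 of 24 bases. There were 17 of 8 to 14 bases, and 0 of 3 to 7 bases. GENCODE M21 lists 658 of the 909 as internal exons (72.4%), and the shortest of these with a read had 12 bases. Including reads were present in both libraries for 512 of the 658 annotated microexons (77.8%) and for 46 of the 251 others (18.3%). A single read in all supported 191 of those 251 (76.1%).

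**Figure D1:**
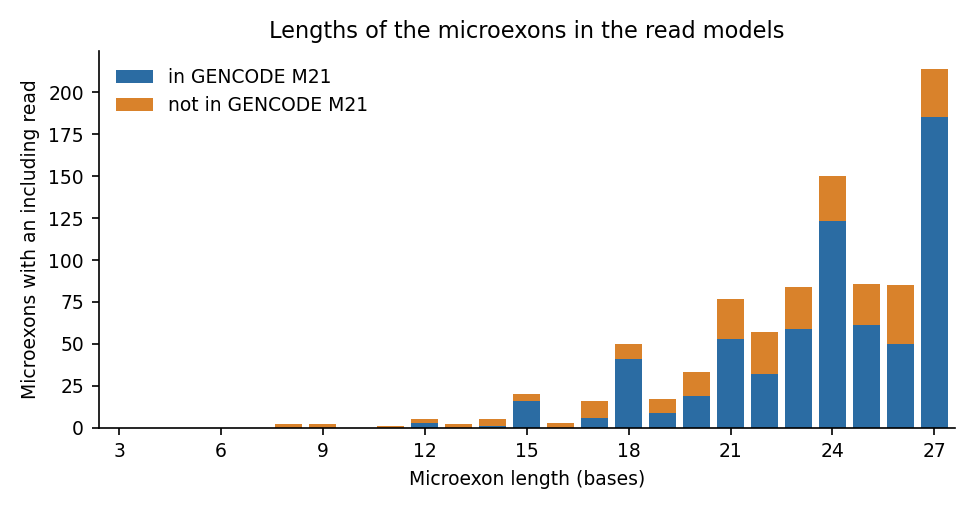
Number of microexons with at least 1 including read (y axis) at each length in bases (x axis), both libraries together, split into exons that GENCODE M21 lists and exons that it does not. The tallest bars are at 27 bases (214) and 24 bases (150), and no bar stands below 8 bases.

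Spanning reads are those whose model starts before and ends after an exon, and inclusion is the percentage of them holding exactly that exon. The rest either skip the exon, with an intron over all of it, or carry other exon sequence there, such as an exon with another boundary or a retained intron. A microexon was called measured with at least 20 spanning reads in each library and alternative with a mean inclusion of 5 to 95%. Of 423 measured microexons, 105 were above 95%, 127 were alternative and 191 were below 5%. Of the 191 low ones, 160 were unannotated (83.8%).

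The 127 alternative microexons lay in 120 genes, and 7 genes had 2 each. Their median inclusion was 75.3%, and 88 of them were included in at least 50% of reads. GENCODE M21 lists 120 of them, of which 104 are coding (86.7%). Reads without the exon mostly skipped it for 94 of the 127, and mostly carried other exon sequence for 33. Lengths divisible by 3 made up 71 of the 94 (75.5%), 16 of the 33 (48.5%) and 45 of the 105 microexons above 95% (42.9%).

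Counted over all spanning reads, microexons were alternative more often than longer exons in these libraries. Of measured exons, 30.02% of microexons had an inclusion of 5 to 95%, beside 15.9% of exons of 28 to 50 bases, 13.6% of exons of 51 to 100 bases and 13.3% of longer ones. Among exons that a Known model holds, the shares were 47.0%, 21.8%, 16.6% and 17.7%, with 94 of 200 microexons alternative. Among the alternative exons of each class, lengths divisible by 3 made up 68.5%, 48.9%, 42.5% and 36.9%. These are descriptions of 2 libraries, and the differences between length classes were not tested. Skipping reads here include those whose neighbouring exons ran past their annotated ends, described below. Such reads made up 32.1% of those skipping annotated microexons and 0.533% at annotated exons of 28 to 100 bases. With skipping counted only at the sites of including reads, 70 of 267 measured microexons were alternative, and longer exons were not counted this way. This count does not remove every such read, as the sites can be those of any exon before or after the microexon in its models.

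**Figure D2:**
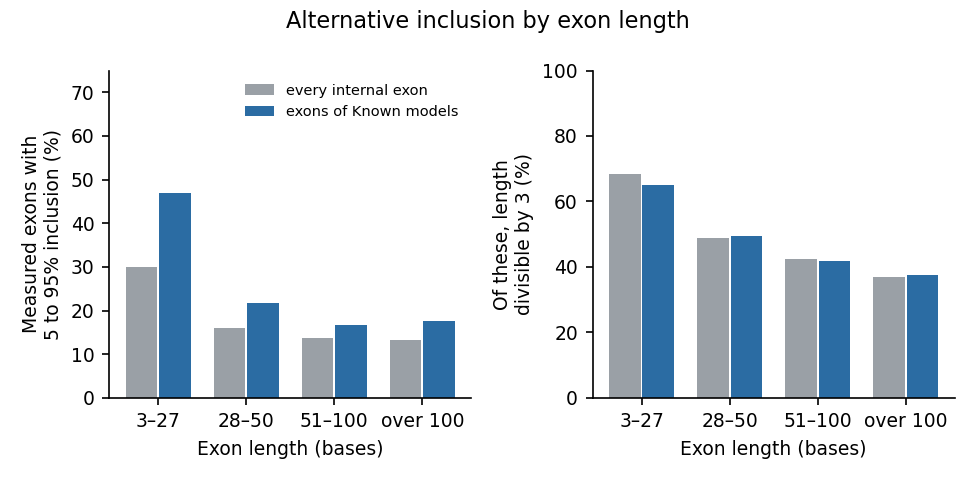
Left, percent of measured internal exons with an inclusion of 5 to 95%, and right, percent of those whose length is divisible by 3, for 4 classes of exon length in bases. Grey bars stand for every internal exon and blue bars for exons of Known models; microexons have the tallest bars in both panels, at 30.02% and 47.0% on the left.

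Genes of vesicle and membrane traffic held the most alternative microexons of the 7 role lists. Of 28 measured microexons in this list, 19 were alternative (67.9%, beside 30.02% of all microexons), with a median inclusion of 75.3%, and 18 of the 19 had a length divisible by 3. The 30.02% takes in many rare unannotated microexons, and among microexons of Known models the share was 47.0%. The list was drawn up knowing that such genes carry microexons, so its share is a description. Snap91 encodes AP180, a clathrin assembly protein of presynaptic endocytosis. Its exon of 15 bases was in 222 of 261 spanning reads in replicate 1 (85.1%) and in 117 of 139 in replicate 2 (84.2%), so the libraries overlapped closely. Most of its 58 skipping reads had neighbouring exons that ran past their annotated ends, as given below. With the 33 skipping reads at the sites of including reads alone, its mean inclusion was 91.2%. Inclusion without the reads that ran past annotated ends was not counted. Dctn1 encodes the p150 subunit of dynactin, which links dynein to its cargo. Its exon of 21 bases was in 151 of 194 reads (77.8%) and in 88 of 117 (75.2%), again a small difference between libraries. Its mean inclusion fell from 76.5% to 57.7% without Genomic and ISM models. Inclusion was much lower among the reads that also spanned an upstream exon of 21 bases, as given below with the pairs of microexons.

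Other members of that list ranged from mostly skipped to mostly included. Bin1, which shapes membrane curvature, held its exon of 24 bases in 178 of 238 reads (74.8%) and 112 of 147 (76.2%). Sh3glb2, endophilin B2, held an exon of 24 bases in 390 of 453 reads (86.1%) and 270 of 338 (79.9%). Only 2 reads skipped the Sh3glb2 exon and 129 carried other exon sequence, and against fully skipping reads its mean inclusion was 99.7%, above the alternative range. Trappc9, a subunit of a vesicle tethering complex, held an exon of 27 bases in 71 of 94 (75.5%) and 45 of 60. These 3 were at 74.8% or higher in both libraries. Dnm2, the membrane fission GTPase dynamin 2, was lower, with its exon of 12 bases in 27 of 70 reads (38.6%) and 12 of 44 (27.3%). It was named after its values were seen, as the shortest annotated alternative microexon. Also named after its values were seen, Synj1, the phosphatase synaptojanin 1, had forms of 21 and 24 bases that share their low-coordinate end. The form of 24 bases was in 46 of 57 reads (80.7%) and 20 of 24 (83.3%), and that of 21 bases in 9 of 57 (15.8%) and 3 of 24 (12.5%).

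For the cytoskeleton, guidance and small GTPase list, 4 of 11 measured microexons were alternative. Git1, a scaffold with GTPase-activating activity for Arf proteins, held its exon of 27 bases in 133 of 146 reads (91.1%) and 86 of 94 (91.5%). Ptk2, the focal adhesion kinase, has a pair of microexons, and both were less included in replicate 2. Its exon of 21 bases was in 70 of 77 reads (90.9%) and 30 of 41 (73.2%). Its exon of 18 bases was in 62 of 77 (80.5%) and 23 of 41 (56.1%). Abi2, part of the WAVE complex that nucleates actin, stood apart with its exon of 18 bases in 6 of 88 reads (6.82%) and 6 of 52 (11.5%). Of its 125 skipping reads, 105 had neighbouring exons longer by 4 bases upstream and 8 bases downstream, at an intron that is not annotated. Counting only the 18 skipping reads joined at the splice sites of including reads, its mean inclusion was 40.7%, and without Genomic and ISM models it was 4.58%, below the alternative range.

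In the list of synaptic adhesion, receptor and scaffold genes, 2 of 3 measured microexons were alternative. Dlg1, the scaffold SAP97, held an exon of 21 bases in 40 of 137 reads (29.2%) and 11 of 69 (15.9%), and 128 reads carried other exon sequence there. Against fully skipping reads its mean inclusion was 61.3%. Among channels and pumps, 3 of 4 measured microexons were alternative. Atp2a2, the calcium pump SERCA2, held its exon of 18 bases in 261 of 284 reads (91.9%) and 115 of 132 (87.1%). Its 38 skipping reads all had the upstream exon longer by 4 bases, at an unannotated intron, so its inclusion was 100% when skipping was counted only at the sites of including reads. Atp6v0a1, a subunit of the proton pump of vesicles, held an exon of 18 bases in 76 of 138 (55.1%) and 40 of 80. Cacnb1, a calcium channel beta subunit, held an exon of 20 bases in 50 of 52 (96.2%) and 30 of 32 (93.8%), and its mean was 96.5% against fully skipping reads. Thus Atp2a2 and Cacnb1 each left the alternative range under one of these counts.

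Among transcription factors, the MEF2 genes carried 3 measured microexons, which encode an acidic stretch near the activation domain. Mef2a held its exon of 24 bases in 52 of 60 reads (86.7%) and 21 of 27 (77.8%). Mef2d held its exon of 21 bases in 18 of 25 (72.0%) and 21 of 25 (84.0%), and 2 of its 11 skipping reads used the sites of including reads, which alone give a mean of 95.7%. Mef2c held an exon of 24 bases in 261 of 263 (99.2%) and 169 of 173 (97.7%), above the alternative range; it was named after its values were seen. In the list of RNA binding, splicing and translation genes, 0 of 2 measured microexons were alternative.

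Among kinases, phosphatases and ubiquitin genes, 4 of 8 measured microexons were alternative. Trim9, a neuronal ubiquitin ligase, held its exon of 24 bases in 212 of 257 reads (82.5%) and 120 of 156 (76.9%). Mink1, a kinase of the Ste20 group, held an exon of 24 bases in 109 of 133 (82.0%) and 47 of 64 (73.4%). The microtubule affinity-regulating kinases were low: Mark3 held an exon of 27 bases in 40 of 166 (24.1%) and 18 of 111 (16.2%). Mark2 held one of the same length in 10 of 121 (8.26%) and 11 of 103 (10.7%). In both MARK genes reads without the exon mostly skipped it. Of 217 skipping reads in Mark3 and 202 in Mark2, 217 and 200 used splice sites of including reads. These sites need not be those of the neighbouring exons.

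**Figure D3:**
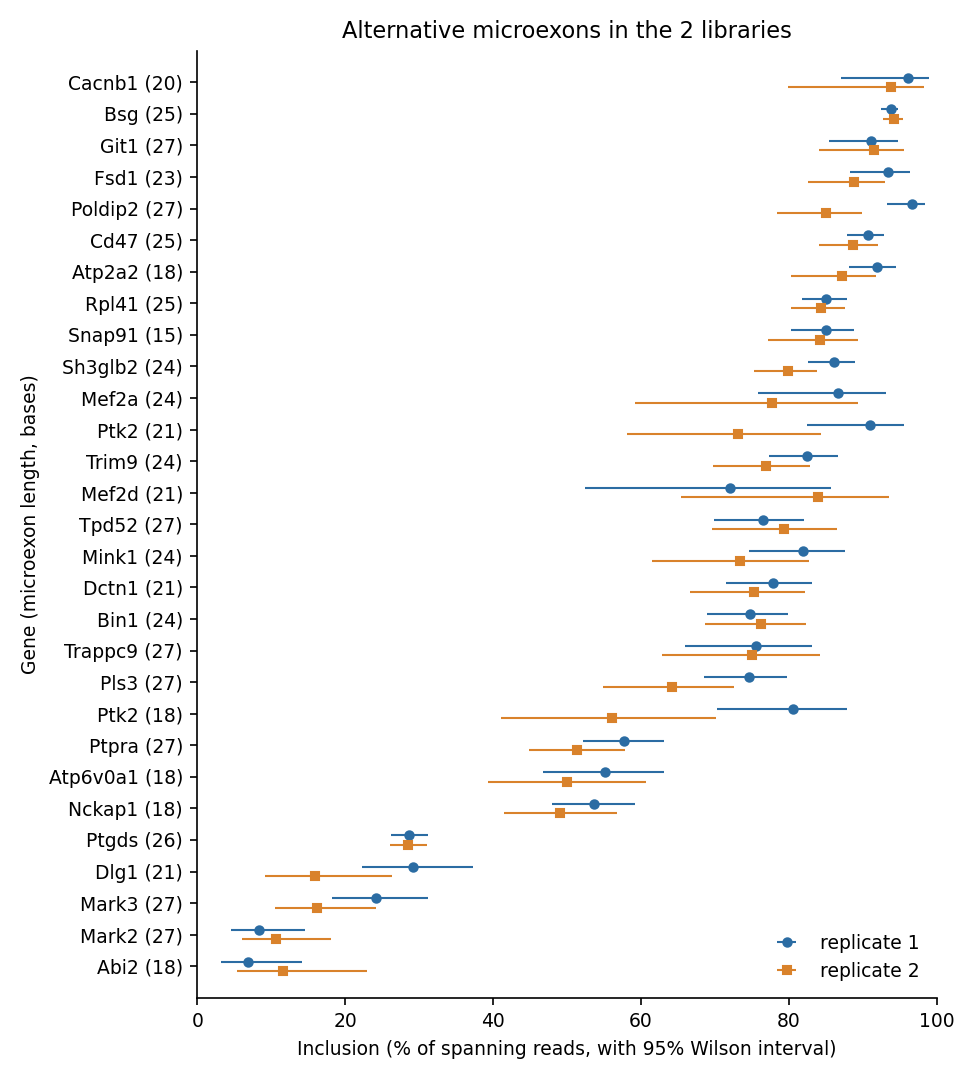
Inclusion in percent of spanning reads (x axis) of named alternative microexons, 1 line per microexon with its length in bases. Circles are replicate 1 and squares replicate 2, and bars are Wilson 95% intervals of the counting error; the means run from Abi2 (18 bases) at the bottom to Cacnb1 (20 bases) at the top, and the bars of the libraries overlap for all but Poldip2 (27 bases) and Ptk2 (18 bases).

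Outside the lists, 93 of 364 measured microexons were alternative. Cd47, a surface protein that restrains engulfment by phagocytes, held an exon of 25 bases in 466 of 514 reads (90.7%) and 219 of 247 (88.7%). Ptpra, a receptor-type tyrosine phosphatase, held one of 27 bases in 176 of 305 (57.7%) and 114 of 222 (51.4%). Nckap1, a WAVE complex subunit like Abi2, held one of 18 bases in 162 of 302 (53.6%) and 80 of 163 (49.1%). Thus Ptpra and Nckap1 were close to an even split in both libraries. Tpd52, a protein of vesicle trafficking, held an exon of 27 bases in 143 of 187 (76.5%) and 69 of 87 (79.3%). Pls3, the actin bundling protein plastin 3, held one of 27 bases in 167 of 224 (74.6%) and 70 of 109 (64.2%).

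In 4 further genes outside the lists, few or none of the reads without the microexon joined its neighbours at the sites of including reads. In Ptgds, which makes prostaglandin D2, an exon of 26 bases was in 368 of 1285 reads (28.6%) and 353 of 1242 (28.4%), and 1805 reads carried other exon sequence there. In Rpl41, a ribosomal protein gene, an exon of 25 bases was in 450 of 529 (85.1%) and 317 of 376 (84.3%), with 0 skipping reads. Fsd1 held an exon of 23 bases in 141 of 151 reads (93.4%) and 127 of 143 (88.8%), with 19 reads of other exon sequence. In Bsg, the surface glycoprotein basigin, an exon of 25 bases was in 1651 of 1761 (93.8%) and 1147 of 1217 (94.2%). Bsg had 173 skipping reads, of which 148 had the downstream exon longer by 28 bases at an unannotated intron, and 0 joined the sites of including reads. Against fully skipping reads, mean inclusion was 99.9% in Ptgds, 100% in Rpl41 and 97.4% in Fsd1, and with skipping counted only at the sites of including reads it was 100% in Bsg, so all 4 left the alternative range.

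Of the 127 alternative microexons, 7 are not annotated internal exons, in Eprs, Elmod1, Fermt2, Fhod3, Paxip1, Lrrc14 and Urgcp; they were named after their values were seen. Eprs encodes the enzyme that charges tRNAs with glutamate and proline. Its exon of 21 bases, chr1:185387357-185387377, was in 29 of 99 reads (29.3%) and 13 of 50 (26.0%), and all 107 skipping reads used the sites of including reads. The exon of 24 bases in Elmod1, chr9:53923942-53923965, was in 9 of 115 (7.83%) and 5 of 92 (5.43%). That of 21 bases in Fermt2, the integrin activator kindlin 2, chr14:45462715-45462735, was in 7 of 77 (9.09%) and 4 of 62 (6.45%). All 3 had a length divisible by 3 and reads in both libraries. This does not hold for all 7, as another of them had 11 bases, a length not divisible by 3.

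Among the most read microexons above 95%, Aplp1, a relative of the amyloid precursor protein, held an exon of 24 bases in 2193 of 2199 and 1403 of 1413 reads. Selenow, a selenoprotein, held one of 25 bases in 1424 of 1429 and 1051 of 1058. A Rpl41 exon of 23 bases, Morf4l1 (26 bases) and Palm (22 bases) were at 97.3% or above in each library. Among those below 5%, Camk2b, a kinase subunit of the synapse, held an exon of 17 bases in 17 of 557 reads (3.05%) and 13 of 359 (3.62%), with 883 reads of other exon sequence and 3 skipping reads. Pak1, a kinase that acts on actin, held one of 24 bases in 8 of 342 (2.34%) and 3 of 196 (1.53%), and Myl6, a myosin light chain, one of 20 bases in 4 of 315 (1.27%) and 1 of 186 (0.538%). An exon of 25 bases in Fbxl16 was in 9 of 333 (2.70%) and 4 of 207 (1.93%), with 1 skipping read in all. A form of 23 bases of the Rpl41 exon of 25 bases, differing in 1 end by 2 bases, was in 11 of 529 (2.08%) and 4 of 376 (1.06%), and its mean inclusion was 86.3% when exon ends within 3 bases counted as the same and 100% against fully skipping reads. Reads without the exons of Camk2b and Fbxl16 also mostly carried other exon sequence, and their mean inclusion was 90.6% and 95% against fully skipping reads. Among the most read microexons outside Known models were exons of 8 and 27 bases in Ndrg4 and of 22 bases in Aplp1, and each had 1 including read against at least 1349 spanning reads in each library.

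How many annotated microexons were found depended strongly on their length. GENCODE M21 lists 499 internal exons of 3 to 27 bases with at least 20 spanning reads in each library, and 255 of these had an including read (51.1%). None of the 60 exons of 3 to 9 bases had one. Summed over these exons, 13039 reads skipped them and 7271 carried other exon sequence there. These are exons of the deposited models: whether the authors' alignment and model building can place exons this short was not tested, so a count of 0 does not show that the exon is absent from the RNA. The share was 3.13% at 10 to 12 bases (1 of 32), 12.2% at 13 to 15 (5 of 41), 31.7% at 16 to 18 (13 of 41), 54.3% at 19 to 21 (38 of 70), 76.2% at 22 to 24 (77 of 101) and 78.6% at 25 to 27 (121 of 154). It was 86.9% for the 578 annotated exons of 28 to 36 bases and 94.5% for the 9345 of 76 to 100 bases. Among exons in at least 3 annotated transcripts the shares were higher from 10 bases on: 0 of 15 at 3 to 9 bases, 1 of 6 at 10 to 12, 3 of 4 at 13 to 15, 5 of 8 at 16 to 18 (62.5%), 16 of 21 at 19 to 21 (76.2%), and all 41 and 66 at 22 to 24 and 25 to 27.

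Reads that skipped an annotated microexon, found elsewhere or not, often did not join its neighbouring exons at their annotated ends. How often varied with length and gene. A neighbour was called lengthened when the exons on both sides together ran past the annotated ends by 1 base or more, and by no more than the microexon's own length. Of 46891 reads that skipped annotated microexons, 15072 had lengthened neighbours (32.1%), beside 0.533% of 289151 reads that skipped annotated exons of 28 to 100 bases, where extensions of up to 27 bases were counted. These counts are summed over exons, so a read that skips several annotated exons counts at each of them. In replicate 1 the share for microexons was 32.2% and in replicate 2 it was 32.0%. An exon of 18 bases in Nrgn, annotated in an untranslated region and a noncoding transcript, gave 5291 of these reads, and without it the share was 23.5%. The introns of 13242 of the 15072 reads are not annotated.

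**Figure D4:**
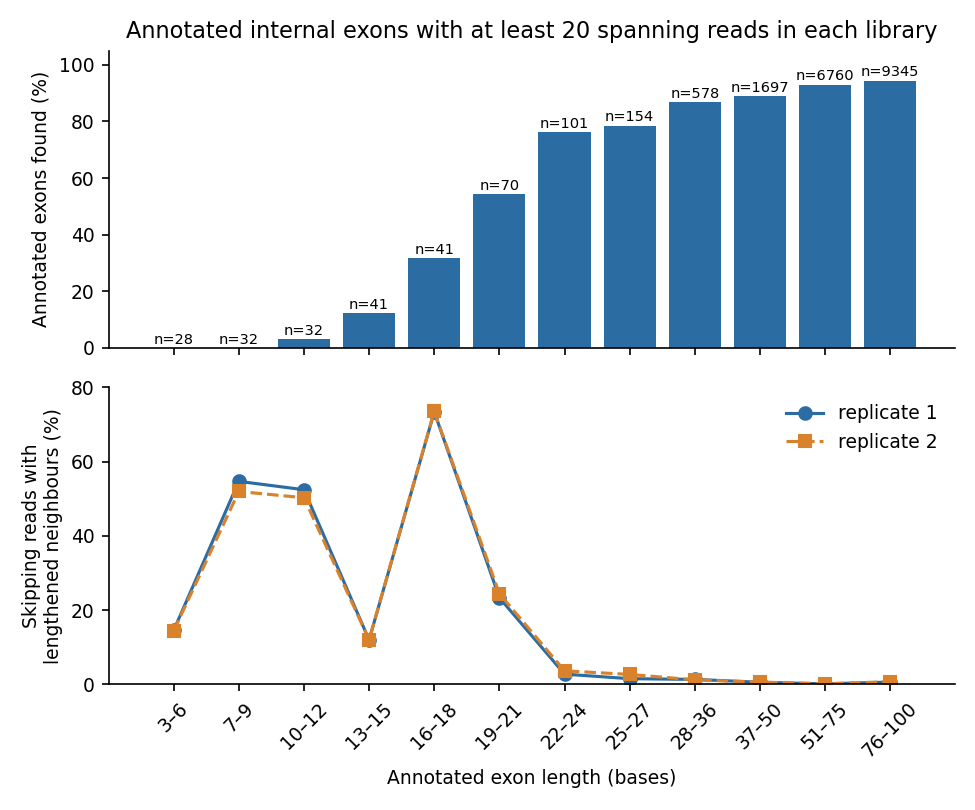
Top, percent of annotated internal exons that had at least 1 including read, by exon length in bases, with the number of exons above each bar; the bars rise from 0 at 3 to 9 bases to 94.5% at 76 to 100 bases. Bottom, percent of skipping reads with lengthened neighbouring exons in each library at the same lengths; both libraries follow the same line, with 73.5% at 16 to 18 bases, where the share is 36.98% without the Nrgn exon, and under 4% from 22 bases on.

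For 37 of the 214 annotated microexons with at least 20 skipping reads, most of those reads had lengthened neighbours. The same held for 12 of 1544 annotated exons of 28 to 100 bases. The 37 microexons lay in 34 genes, and 28 of them had no including read at all. The commonest junction lengthened the upstream exon in 28, the downstream exon in 6 and both in 3. In 17 of them it added exactly 4 bases upstream and 0 downstream. The junction is not an annotated intron for 32 of the 37, and each of the 37 was seen in both libraries. The genes named next were chosen after their values were seen.

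In Hnrnpk, an abundant RNA-binding protein, the exon of 16 bases is in 8 annotated transcripts and was in 0 of 726 and 0 of 465 spanning reads. A count of 0 allows shares of up to 0.413% and 0.645% by counting error, which does not cover reads in which so short an exon was not placed. In 1135 of its 1190 skipping reads the upstream exon was longer by exactly 16 bases. In Apbb1, the amyloid precursor adaptor Fe65, a neuronal exon of 6 bases was in 0 of 943 and 0 of 564 reads. Of 1498 skipping reads, 194 joined the annotated ends and 1295 had the downstream exon longer by exactly 6 bases, at an annotated intron. The same match of lengths was seen for the 8 bases of Pitpnb, a phosphatidylinositol transfer protein, in 258 of 259 skipping reads. It was also seen for the 20 bases of Suds3, a corepressor subunit, in 224 of 229, where the upstream exon took 4 and the downstream exon 16. Thus in these 4 genes most reads kept the spliced length that inclusion would give, without the annotated exon.

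In others the neighbours took up fewer bases than the microexon holds. Gramd1a, which moves cholesterol between membranes, has an exon of 21 bases in 10 annotated transcripts; 110 of 110 and 72 of 72 reads skipped it, all with the upstream exon longer by 16. Camta2, a transcription factor, has one of 21 bases, and 397 of 417 skipping reads had the upstream exon longer by 20. Rph3a, the vesicle protein rabphilin, has one of 12 bases, and 143 of 151 had the upstream exon longer by 4. Snap91 lay between the patterns: its exon of 15 bases was mostly included, and 50 of 58 skipping reads had lengthened neighbours.

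Other short microexons were skipped at the annotated ends. In Nsmf, a messenger from synapse to nucleus, the exon of 6 bases was in 0 of 597 and 0 of 408 reads, and 943 of 959 skipping reads joined its annotated neighbours exactly. A Snap91 exon of 6 bases was likewise in 0 of 236 and 0 of 124 reads, with 356 of 360 exact. In Kif3a, a kinesin motor subunit, 91 of 97 reads that skipped the exon of 9 bases were exact, and in Dync1i2, a dynein chain, 169 of 170 that skipped one of 18 bases were. For Dnm2, whose exon of 12 bases was found, 73 of 74 skipping reads were exact. At similar lengths, the junction that replaced a microexon thus differed from gene to gene.

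Inclusion was compared between the libraries. Of the 127 alternative microexons, 100 differed by less than 10 percentage points (78.7%). The Wilson 95% intervals overlapped for 125, all but those of Poldip2 (27 bases) and Ptk2 (18 bases). These counts were not made for longer exons, and intervals from few reads are wide and overlap easily. Among exons with a mean inclusion of 1 to 99%, the median absolute difference was 2.94 points for microexons and 2.74 points over all lengths. Fisher's exact test, two-sided and adjusted by Benjamini-Hochberg over 32358 internal exons with a mean inclusion of 1 to 99%, called 1 of 265 microexons tested. Over all these exons it called 82 (0.253%). The microexon was that of Poldip2, a partner of DNA polymerase delta, with 27 bases at chr11:78518953-78518979. It was in 203 of 210 reads in replicate 1 (96.7%) and in 125 of 147 in replicate 2 (85.0%), a difference of -11.6 percentage points (adjusted p = 0.0460, Fisher's exact test); the 29 other reads carried other exon sequence, and 0 skipped it. The call was lost when models of the class Genomic were left out, and against fully skipping reads inclusion was 100% in both libraries. An unadjusted p under 0.05 was reached by 14 of the 265 (5.28%), beside 3.69% of all exons tested, the Ptk2 pair among them (unadjusted p = 0.0154 and 0.00901, Fisher's exact test; adjusted p = 0.967 and 0.786). Of the 127 alternative microexons, 42 were higher in replicate 2. The median difference over the 265 tested was -1.55 points, beside -0.36 points over all exons. The lower oligodendrocyte markers of replicate 2 move with this, and their part in it was not tested.

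Because a long read holds many exons of a transcript, the joint use of a microexon and another alternative exon of its gene could be counted. With at least 20 reads spanning both exons in each library, there were 425 such pairs in 97 genes, and the different boundaries of an exon count as separate pairs. A pair was called linked when Fisher's exact test on reads spanning both exons gave an adjusted p under 0.05 in each library, in the same direction. Of the 425, 81 were linked in 40 genes (19.1%): 58 were used together and 23 apart. Of 15370 pairs of longer exons 11.7% were linked, 1638 together and 165 apart. Neighbouring exons made up 50 of the 81, beside 1246 of the 1803 linked pairs of longer exons. When reads with other exon sequence at either exon were left out, 27 of 253 pairs were linked (10.7%, beside 3.88% of pairs of longer exons). Of these 27, 25 were used together and 2 apart, beside 265 and 42 of the linked pairs of longer exons. Separately, 25 of the 27 were also linked with all reads.

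In Trim9 the exon of 24 bases went with a neighbouring exon of 42 bases. In replicate 1 it was in 93.3% of 225 reads with that exon and 6.25% of 32 without it, and in replicate 2 in 89.6% of 134 and 0% of 22 (adjusted p = 4.13e-24 and 6.05e-16, Fisher's exact test). An exon of 189 bases further upstream, chosen after its values were seen, showed the same, with 97.6% against 11.1% and 96.7% against 0%. Trim9 was also linked with both boundary forms of its downstream exon, of 304 and 250 bases, but not once reads with other exon sequence were left out. In Cd47 all 459 reads of replicate 1 and all 215 of replicate 2 with a downstream exon of 33 bases held the exon of 25 bases, beside 12.7% of 55 and 12.5% of 32 reads without it (adjusted p = 7.71e-58 and 1.15e-30, Fisher's exact test). Both genes had linked pairs in either set of reads.

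The other well-read linked pairs in the order fixed by read number were in Sh3glb2, and they behaved differently. Its exon of 24 bases was in 99.4% and 99.1% of reads that held a neighbouring exon as its form of 63 bases, and in 50.5% and 35.5% of reads that did not. Sh3glb2 had 6 linked pairs; once reads with other exon sequence were left out, 5 could still be tested and 0 were linked. The exons of 18 bases in Atp6v0a1 and 15 bases in Snap91 also lost their links to neighbours of 108 and 113 bases in those reads; these and Herc3, a ubiquitin ligase, were named after their values were seen. In Herc3, all 52 and 18 reads with the microexon had a neighbour of 90 bases, and all 42 and 11 reads without it had that neighbour as 116 bases, so no pair could be tested in the stricter reads.

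Further pairs were chosen after their values were seen, for links kept in both sets of reads. In Tpd52 the exon of 27 bases was in 91.6% and 95.8% of reads with a downstream exon of 42 bases, and in 3.13% and 0% of reads without it. Its relative Tpd52l2 showed the same arrangement, with an exon of 27 bases in 73.6% and 67.5% of reads with a downstream exon of 42 bases and in 6.25% and 10.0% without it. In Bin1 the exon of 24 bases was in 98.2% and 100% of reads with an upstream exon of 129 bases, and in 10.7% and 9.38% without it. Sh3glb1 joined its exon of 24 bases to an upstream exon of 39 bases, with 100% and 100% against 10.7% and 11.1%. In Mark3 the direction was opposite: the exon of 27 bases was in 2.27% and 0% of reads with an upstream exon of 159 bases and in 31.9% and 24.7% of reads without it. Mtmr1, a phosphoinositide phosphatase, was likewise apart, with 7.14% and 27.3% against 86.2% and 82.4% for its exon of 24 bases and a neighbour of 51 bases.

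Pairs of microexons were tested in 4 genes. In Ptk2 the exon of 21 bases was in 60 of 62 reads with the exon of 18 bases and 10 of 15 without it in replicate 1, and in 23 of 23 and 7 of 18 in replicate 2. In Dctn1 an upstream exon of 21 bases was in 9 of 15 reads with the exon of 21 bases described above and 1 of 41 without it in replicate 1. In replicate 2 it was in 11 of 13 and 3 of 28. Thus the downstream exon was in only 15 of the 56 reads spanning both exons in replicate 1 and 13 of 41 in replicate 2. This is well below its share of all its spanning reads, and why was not tested. Both pairs were linked, used together. The pairs in Kif1a, a kinesin of vesicle transport (24 and 27 bases), and Ap1ar, an adaptor-complex regulator (26 and 27 bases), passed in 1 library each: adjusted p was 0.00368 and 0.0905 in Kif1a, used apart, and 0.122 and 0.000523 in Ap1ar, used together (Fisher's exact test).

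**Figure D5:**
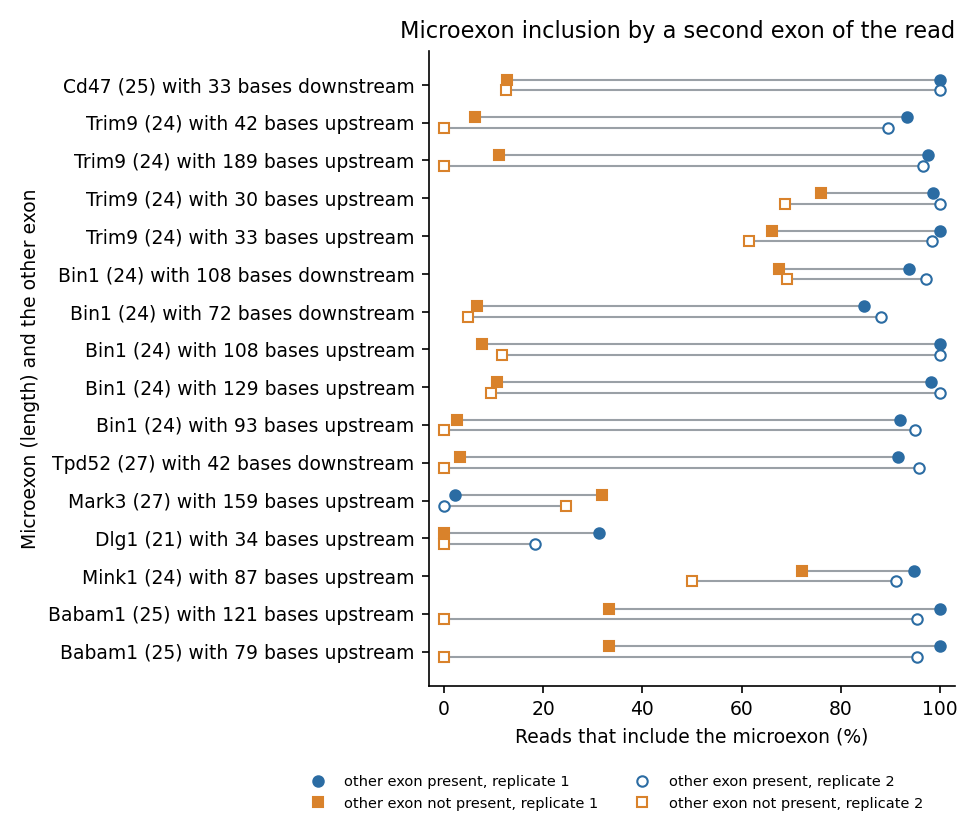
Percent of reads that include the microexon (x axis) among reads with (circles) and without (squares) another exon of the same gene, filled for replicate 1 and open for replicate 2, for the 16 best-read pairs linked when reads with other exon sequence were left out; the percentages shown use all reads spanning both exons. Circles lie to the right of squares in each pair but that of Mark3; the Dlg1 pair was not linked when all reads were used.

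All 24 genes of the list of microexon splicing regulators were read, 23 of them in both libraries. Srrm4, the main activator of neuronal microexons, had 4 reads in replicate 1 and 0 in replicate 2, where a count of 0 allows up to 3.98 RPM. Srrm3, its close relative, had 26 and 24 reads (24.2 and 31.9 RPM). The repressor Ptbp1 had 12 and 9 reads, beside 96 and 67 for its neuronal counterpart Ptbp2. Rbfox3 led the Rbfox genes with 394 and 320 RPM, beside 70.9 and 61.0 for Rbfox1 and 81.1 and 88.9 for Rbfox2. Nova1 had 29.8 and 27.9 RPM and Nova2 28.9 and 25.2 RPM. The summed list stood at 3321 and 3117 RPM. These are read levels without correction for transcript length.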

How the data were processed

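Each library's deposited table gives raw read counts per transcript model, listing models with at least 1 read, beside the models' exon coordinates. The authors, per the file headers, aligned reads to mm10 with GENCODE M21, and the annotation source field names TALON; the aligner is not given in the sources used here. No molecular identifiers were counted, and intervals hold counting error alone. Reads of overlapping genes or near-identical copies are uncertain.

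Counts were joined to exon chains, and reads whose model spans an exon were split into including, skipping and other. Wilson 95% intervals, Fisher's exact tests (two-sided) and Benjamini-Hochberg adjustment used scipy 1.17.1 and pandas 2.3.3 under Python 3.11.15; both tests were tested on simulated data. Annotated neighbours, coding status and sequences came from GENCODE M21 (mm10). The motif search in flanking introns was not run, as no genome sequence was used here.

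Members and lists were chosen with earlier results of these data known. Named genes are up to 5 alternative microexons per role list by spanning reads, 10 outside the lists, 5 above 95%, 5 below 5% with at least 5 including reads, 5 outside Known models, those called between libraries and up to 10 linked pairs by reads; microexons of 3 to 6 bases with reads were also to be named, and 0 qualified. Alternatives changed the denominator, model classes, read minimums, inclusion range and exon match, or left out a library. Some results that the naming rule selects are not reported here.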

Additional observations from a re-analysis of the deposited data

How the results depend on the processing

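The number of microexons was 613 with at least 2 including reads, 558 with reads in both libraries and 413 in Known models, and 679 to 788 with 1 library left out. Measured microexons fell from 423 to 267 when skipping was counted only at the splice sites of including reads, and to 235 at a minimum of 50 spanning reads (426 to 471 from 1 library). Alternative microexons numbered 127; they were 70 and 49 under those settings, 84 with an inclusion of 10 to 90%, 90 with fully skipping reads alone in the denominator and 134 to 137 from 1 library. The median inclusion of measured microexons depended on the settings most: 19.9% as measured, 90.6% with fully skipping reads alone, 96.5% at the same splice sites, 9.66% without Genomic and ISM models, 29.8% and 2.14% at minimums of 10 and 50 reads, and 16.1% to 24.1% from 1 library. It is therefore not used above, since rare unannotated exons enter with the reads of their gene. The share with a length divisible by 3 was 78.6% at 10 to 90% inclusion. The count of microexons called between libraries was 0 with fully skipping reads alone, 0 without Genomic models and 0 at a minimum of 10 reads. Linked pairs numbered 27 with including and skipping reads alone. Chosen after seeing the data: the share of annotated microexons of 3 to 15 bases that were found was 4.51% (6 of 133), 16% in at least 3 annotated transcripts, 4.51% with exon ends within 3 bases, 7.25% (5 of 69) at a minimum of 50 spanning reads, and 3.73% to 5.06% from 1 library. The share of skipping reads with lengthened neighbours was 23.5% without the Nrgn exon, 42.6% for exons in at least 3 annotated transcripts and 32.0% to 32.2% from 1 library. No paired analysis was possible because the series has 1 group. Near the minimum of 20 spanning reads, differences between the libraries far above a few percentage points could go uncalled. The Ptk2 exon of 18 bases, at 77 and 41 spanning reads, differed by -24.4 points and was not called (adjusted p = 0.786, Fisher's exact test). The smallest difference that the test could call was not determined.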

Other observations

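For 4 microexons whose neighbours took up exactly their length, the added intron bases lie in another annotated exon of the gene and could be read from the GENCODE M21 transcripts. Compared position by position without gaps, the added bases matched the microexon at 5 of 6 positions in Vps8, a subunit of an endosomal tethering complex. They matched at 6 of 9 in Emc1, a subunit of an insertion complex of the endoplasmic reticulum, at 3 of 6 in Apbb1 and at 8 of 16 in Hnrnpk. In Vps8 66 of 90 and in Emc1 140 of 174 skipping reads used this junction, and their microexons had no including read. The junction is an annotated intron in Vps8, Emc1 and Apbb1, and not in Hnrnpk. For Pitpnb and Suds3 the added bases were not analysed here.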
